A study of Mus musculus with 2 samples.

Results

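The guanylate-binding proteins are GTPases that interferon gamma induces strongly in macrophages, and their genes lie in tandem arrays at 2 places in the mouse genome. H3K79me2 peaks were read over Gbp2, Gbp3, Gbp4, Gbp5, Gbp6, Gbp7, Gbp8 and Gbp9, which are 8 of the 12 annotated genes with a Gbp symbol and 8 of 21938 protein-coding genes. These members were chosen by the bases and blocks they hold under 4 deposited peak lists, so their values in those lists are a description and no test was made on them. The data are ChIP-seq of H3K79me2, dimethylation of lysine 79 of histone H3, in bone-marrow-derived macrophages from C57BL/6J mice, cultured without stimulation and with no genotype or treatment contrast. The 2 biological replicates form 1 group, each from 10 ng of DNA with the same control experiment. Their labels name a single donor identifier, and record sex as not collected and age as unknown or not collected, so it is not known here if animals or cultures differed. The 4 lists are replicate 1 alone, replicate 2 alone, a pooled list from both replicates' alignments together, and a replicated list that the authors derived from both replicates' alignments.

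Guanylate-binding proteins belong to the dynamin superfamily. They gather on vacuoles that hold bacteria or parasites and on bacteria free in the cytosol, where they break open the membrane and expose bacterial lipopolysaccharide to caspase-11. Transcription of their genes depends on Irf1 and is low in resting macrophages. H3K79me2 is placed by the methyltransferase Dot1l and marks the early body of transcribed genes, downstream of the promoter.

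The lists differ in extent. There were 22979 peaks over 63.5 Mb in replicate 1, 31577 over 114 Mb in replicate 2; the pooled list held 26838 over 106 Mb and the replicated list 15559 over 93.2 Mb. The lists carry no read counts, and library depth is unknown. Macrophage marker genes fit the label: peaks covered bases of 10 of 10 in each list, where 31.0% to 39.7% of all coding genes had any covered base. By the marking rule given below, 9 of 10 were marked in each list, all but Csf1r. No gene of the T cell, B cell, neutrophil, dendritic cell and fibroblast lists was marked in the replicated list, which marked 30.3% of all coding genes. In replicate 2's list the T cell gene Cd4 had 589 bp covered.

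Peaks lay over all 8 Gbp genes in replicate 2 and over almost none of their bases in replicate 1. In replicate 2's list 32214 bp of the 227200 bp that the genes span were covered (14.2%), and in replicate 1's list 308 bp (0.136%). The pooled list covered 20971 bp (9.23%). The replicated list covered 1802 bp (0.793%), all of it in 1 block that Gbp8 and Gbp9 share. Gbp2, Gbp3, Gbp4, Gbp5, Gbp6 and Gbp7 thus had no base in the replicated list and none in replicate 1's, against 1076 to 9424 bp each in replicate 2's. A gene without a peak may still carry the modification below what was called.

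**Figure D1:**
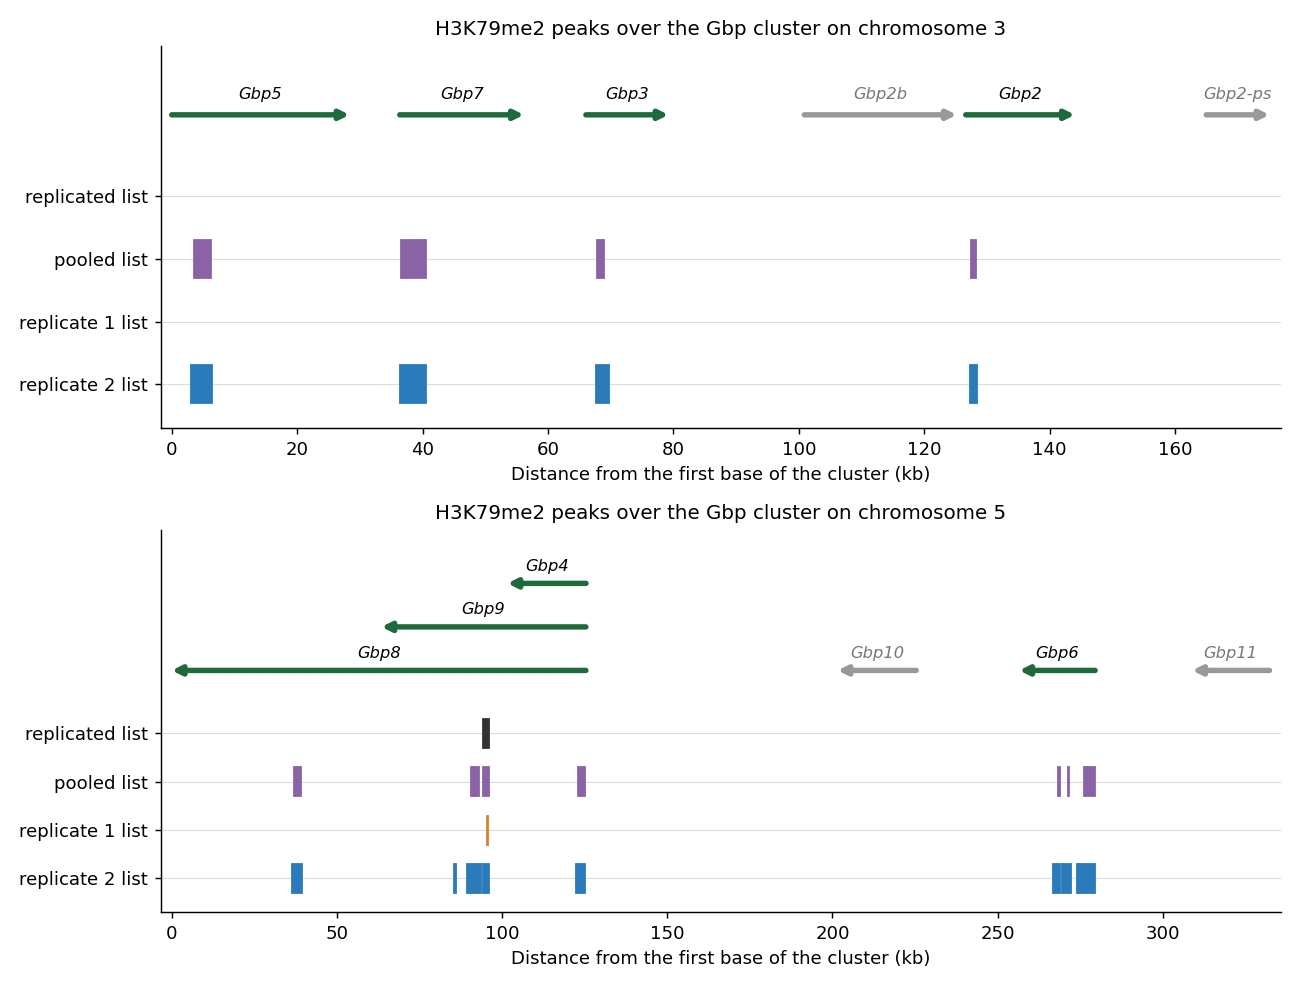
Peaks of the 4 lists along the Gbp cluster of chromosome 3 (top) and of chromosome 5 (bottom), with distance from the first base of each cluster in kb on the horizontal axis. Arrows are genes in their direction of transcription, green for the 8 members and grey for other Gbp genes; filled boxes are peaks. On chromosome 3 the replicate 1 and replicated lists are empty, and on chromosome 5 each holds 1 block.

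Marked here means that peaks of a list cover 200 bp or more of the 3 kb downstream of the outermost 5′ end in the annotation, or of the gene if it is shorter. By this rule 0 of 8 members were marked in the replicated list, where 30.3% of all coding genes were, and 0 of 8 in replicate 1's list, against 27.2%. In replicate 2's list 7 of 8 were marked, against 35.6% of coding genes, and in the pooled list 7 of 8, against 34.3%. The exception in both was Gbp5, whose outermost annotated start belongs to a processed transcript that begins 2922 bp before that of its main coding transcript. When the start of any basic-set transcript counted, all 8 members were marked in replicate 2's list (37.9% of coding genes) and in the pooled list (36.6%). Gbp9 was then marked in the replicated list and in replicate 1's list, 1 of 8 in each, against 32.5% and 29.3% of coding genes. Any covered base at all was found in 2 of 8 members in the replicated list (34.1% of coding genes) and in replicate 1's (31.0%), and in 8 of 8 in replicate 2's (39.7%) and in the pooled list (38.2%). Of the 8321 coding genes that replicate 2 marked at any basic-set start, 20.5% had no base in replicate 1's list and 13.2% none in the replicated list; both held for 6 of the 8 members. These counts come from the values on which the members were selected, and nothing is read from them beyond the description.

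**Figure D2:**
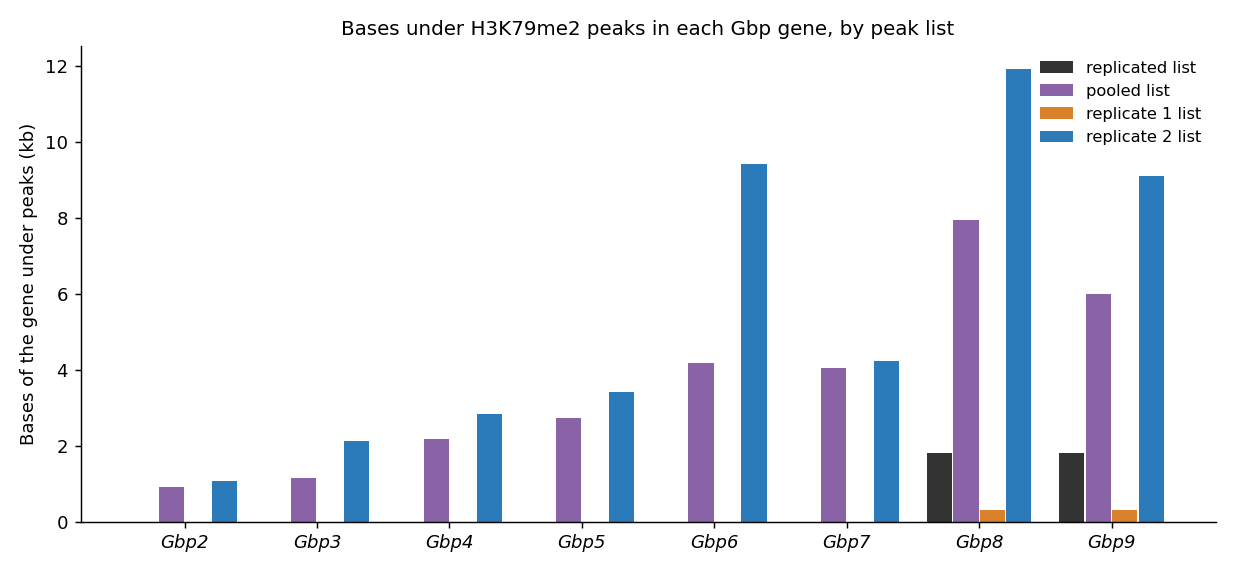
Bases of each Gbp gene under peaks (kb, vertical axis) in each of the 4 lists, 1 bar per list with no error bar because each list gives a single value. Bars for replicate 1 and for the replicated list are present for Gbp8 and Gbp9 alone, where both stand for the same shared block; in replicate 2's list the values run from 1076 bp in Gbp2 to 11943 bp in Gbp8.

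The chromosome 3 cluster spans 175 kb from 142493978 to 142669041 (mm10, as all positions here) and carries Gbp5, Gbp7, Gbp3, Gbp2b, Gbp2 and the pseudogene Gbp2-ps, all on the + strand. Mice that lack this cluster respond weakly to cytosolic lipopolysaccharide and control the parasite Toxoplasma gondii poorly. Replicate 2's list placed exactly 1 block in each of the 4 members, 10847 bp in all, which is 13.8% of their 78766 bp. The pooled list covered 8845 bp (11.2%), and the replicate 1 and replicated lists 0 bp. Every block began downstream of its gene's start.

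Gbp2 (142620602 to 142638008), a prenylated protein that coats the vacuoles of Toxoplasma, had 0 bp covered in replicate 1, 1076 bp in replicate 2, 904 bp in the pooled list and 0 bp in the replicated list. The replicate 2 block ran from 641 to 1717 bp after the start, at a deposited fold over the control of 7.68 and a −log10 q of 27.5. This fold, the authors' own value for a peak, was higher than that of 69.3% of the peaks in the same list. The block was the shortest among the chromosome 3 members and had the highest fold there.

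Gbp5 (142493978 to 142522344), which is prenylated like Gbp2 and has been linked to the NLRP3 inflammasome, had 0 bp in replicate 1, 3407 bp in replicate 2, 2737 bp in the pooled list and 0 bp in the replicated list. Its replicate 2 block lay between 183 and 3590 bp after the start of that coding transcript at 142496900, with a fold of 6.74. Gbp7 (142530342 to 142550149), which has been linked to assembly of the phagocyte NADPH oxidase, had 0 bp in replicate 1, 4228 bp in replicate 2, 4051 bp in the pooled list and 0 bp in the replicated list. Its block was the longest of the 8 genes in replicate 2, with a fold of 6.68, and the pooled list split the same stretch into 2 blocks. The block began 22 bp after the start, nearer than in any other member by the starts used for the blocks here. Gbp8 has another start, at 105051047, that lies inside its replicate 2 block. Gbp3 (142560026 to 142573209) had 0 bp in replicate 1, 2136 bp in replicate 2, 1153 bp in the pooled list and 0 bp in the replicated list. The Gbp3 block began farthest from its start, 1575 bp after the 5′ end at 142560052, at a fold of 5.64.

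The promoters of the chromosome 3 members are shown because interferon acts on these genes through short elements there. RefSeq's promoter table (GRCm38.p6) held 4 of the 8 members, Gbp2, Gbp3, Gbp5 and Gbp7, and also Gbp2b. Below are the 170 bases before each RefSeq start, 5′ to 3′, with capitals for matches to the GAS letters TTCNNNGAA and to the ISRE core GAAANNGAA, read on both strands. GAS elements are named for their part in the response to interferon gamma, and interferon regulatory factors bind ISREs.
Gbp5 (chr3:142496764-142496933, + strand): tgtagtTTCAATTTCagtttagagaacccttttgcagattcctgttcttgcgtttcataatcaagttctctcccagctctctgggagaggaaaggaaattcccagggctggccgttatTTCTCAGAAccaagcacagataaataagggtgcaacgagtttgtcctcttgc
Gbp7 (chr3:142530166-142530335, + strand): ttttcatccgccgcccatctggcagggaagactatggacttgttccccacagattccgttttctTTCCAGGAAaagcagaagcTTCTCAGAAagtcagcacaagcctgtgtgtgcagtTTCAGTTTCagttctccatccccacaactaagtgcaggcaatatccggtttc
Gbp3 (chr3:142559874-142560043, + strand): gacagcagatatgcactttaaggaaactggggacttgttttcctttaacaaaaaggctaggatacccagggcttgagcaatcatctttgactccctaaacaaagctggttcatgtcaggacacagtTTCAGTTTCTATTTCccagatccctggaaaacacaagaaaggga
Gbp2 (chr3:142620493-142620662, + strand): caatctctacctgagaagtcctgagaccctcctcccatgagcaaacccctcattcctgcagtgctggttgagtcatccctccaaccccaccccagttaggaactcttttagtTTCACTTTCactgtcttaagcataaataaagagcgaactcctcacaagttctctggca
Gbp2b (chr3:142594677-142594846, + strand): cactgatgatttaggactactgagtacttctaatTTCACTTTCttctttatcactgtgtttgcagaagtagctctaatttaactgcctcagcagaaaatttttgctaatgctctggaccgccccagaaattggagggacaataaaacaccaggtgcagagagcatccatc

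Positions of matches are counted from the RefSeq starts, which differ from the starts used for the blocks by 34 bp in Gbp5 and 61 bp in Gbp2, both further downstream, and by less than that in Gbp7 and the printed promoter of Gbp3. The match of Gbp2 therefore lies just inside the gene as GENCODE annotates it. Each of these stretches held an ISRE core match, at 164 to 156 bases before the start in Gbp5, 52 to 44 in Gbp7 and 58 to 50 in Gbp2. Gbp3 had 2 ISRE core matches that overlap, at 44 to 36 and 38 to 30; its other RefSeq promoter, which is not printed, had no match to either motif. GAS matches stood in Gbp5, at 245 to 237 (beyond the printed stretch) and 52 to 44, and in Gbp7, at 106 to 98 and 87 to 79. Of all 32851 promoters in the table, 8.56% held an ISRE core match, 8.30% a GAS match and 1.07% both, as Gbp5 and Gbp7 did. Gbp2b, with an ISRE core match at 136 to 128, had no base under any of the 4 lists. A match is a string of letters and does not show that a factor was bound. Peaks of replicate 2 lay downstream of the starts used for the blocks: in the 1 kb before these, 8 of 8 members had 0 bp covered. These starts were chosen after values were seen, and that of Gbp8 lies outside the basic set. A basic-set start of Gbp8, at 105051047, lies inside its replicate 2 block (105050634 to 105053469), which extends upstream of it.

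The chromosome 5 cluster spans 332 kb from 105014150 to 105346472 and carries Gbp8, Gbp9, Gbp4, Gbp10, Gbp6 and Gbp11, all on the − strand. Replicate 2's list held 13 blocks there, covering 21367 bp (14.4%) of the 148434 bp of the 4 members. The pooled list covered 12126 bp (8.17%), the replicated list 1802 bp (1.21%) and replicate 1's list 308 bp (0.207%). Gbp8 (105014150 to 105139540), Gbp9 (105077630 to 105139539) and Gbp4 (105115767 to 105139586) overlap in the annotation because long transcripts of Gbp8 and Gbp9 begin at the start of Gbp4. A peak there counts for more than 1 gene, so the positions below are given from a start of each gene's own: 105053556 for Gbp8, 105110276 for Gbp9, 105139586 for Gbp4 and 105293696 for Gbp6.

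Gbp9, which gathers on Toxoplasma vacuoles, held the 1 block of either cluster that was present in all 4 lists. In replicate 2 it ran from 105108253 to 105110096, 180 to 2024 bp after the own start of Gbp9, with a fold of 13.0 and a −log10 q of 64.2. The pooled and replicated lists had it from 105108271 to 105110072 (1802 bp, fold 8.46, −log10 q 55.9). Replicate 1 had 308 bp of it, from 105109597 to 105109904, with a fold of 2.94 and a −log10 q of 3.56. The block's fold exceeded that of 81.4% of peaks in replicate 2's list and of 6.55% in replicate 1's. It was wholly intronic. Over the whole annotated gene, the Gbp4 block included, Gbp9 had 308 bp in replicate 1, 9107 bp in replicate 2, 6012 bp in the pooled list and 1802 bp in the replicated list. Replicate 2 placed 4 more blocks after that start, out to 10668 bp, none of which had a base in replicate 1.

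Gbp8 had 308 bp in replicate 1, 11943 bp in replicate 2, 7945 bp in the pooled list and 1802 bp in the replicated list, but in replicate 2 a single block followed its own start. This block, of 2836 bp with a fold of 6.34, lay 87 to 2923 bp after that start and was absent from the replicate 1 and replicated lists; the pooled list split it into 2 blocks. The remaining covered bases of Gbp8 are those of Gbp9 and Gbp4, which its long transcript crosses. Gbp4, whose product has been described in mice as a brake on the interferon factor Irf7, had 0 bp in replicate 1, 2831 bp in replicate 2, 2190 bp in the pooled list and 0 bp in the replicated list. The Gbp4 block had the lowest top fold of any member in replicate 2, 4.88, and began 324 bp after the start.

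Gbp6 (105270702 to 105293698), another protein found on Toxoplasma vacuoles, had 0 bp in replicate 1, 9424 bp in replicate 2, 4181 bp in the pooled list and 0 bp in the replicated list. Its 41.0% coverage in replicate 2 was the largest share among the members, which otherwise ranged from 6.18% in Gbp2 to 21.3% in Gbp7. The 9424 bp fell in 6 blocks out to 12618 bp after the start; the first, from 169 to 3740 bp, had a fold of 9.95 and a −log10 q of 46.1. The coding gene Gm43302 begins beside Gbp6 and runs over it, and the same 9424 bp count for both. Among the 1705 coding genes that replicate 2 marked at any basic-set start and that had no base in replicate 1, ranked by replicate 2 fold, Gbp6 stood at 123, Gbp2 at 260, Gbp5 at 365, Gbp7 at 375, Gbp3 at 646 and Gbp4 at 875. The median fold of those genes was 5.02, below 5 of these 6 members.

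In replicate 2 each member had coverage within its first 3 kb. The first covered base lay 22 to 1575 bp after the own start of the 8 members, with a median of 181.5 bp and 5 of 8 under 200 bp. No block of any list lay outside a Gbp gene, and 3.36% of the covered bases on chromosome 3 and 5.14% on chromosome 5 were exonic in replicate 2. In the 500 bp bin that begins 1500 bp after the start, 8 of 8 members had covered bases and 91.0% of the bin was covered, against 87.2% in 6799 genes of 6 kb or more that replicate 2 marked. Beyond 3 kb the Gbp coverage was lower: 38.5% against 71.5% in the bin from 3500 bp and 5.78% against 58.6% in the bin from 5500 bp. Blocks that began beyond 3 kb were those of Gbp6, where 5 blocks with 5853 bp lay 4007 to 12618 bp after the start, and of Gbp9, where 3 blocks with 3980 bp lay 3135 to 10668 bp after it. The comparison genes were counted from a marked start and the members from starts chosen after their values were seen, so this too is a description.

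**Figure D3:**
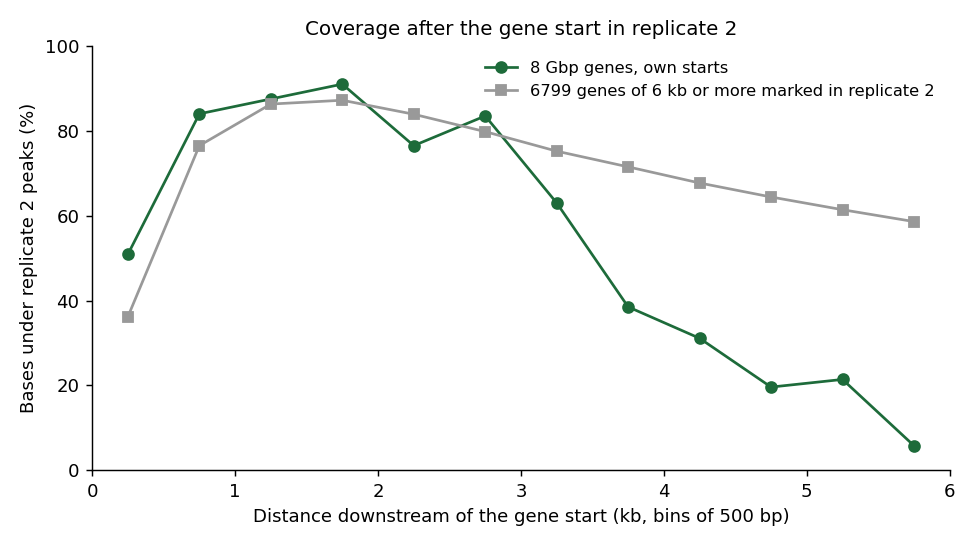
Share of bases under replicate 2 peaks (%, vertical axis) in 500 bp bins after the gene start (kb, horizontal axis), for the 8 Gbp genes from their own starts (green circles) and for 6799 marked coding genes of 6 kb or more (grey squares). Gbp coverage peaks at 91.0% and is 5.78% in the last bin, where the marked genes are at 58.6%.

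Over whole genes, with any basic-set start counted, the 8 members in replicate 2 had a median of 13.4% of the gene covered, a median longest block of 2834 bp and a median top fold of 7.21. All genes that replicate 2 marked by that rule had medians of 34.0%, 4570 bp and 14.1. The median length of the members was 23408 bp, and that of all coding genes 17425 bp.

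Of the 17 replicate 2 blocks in the clusters, 1 overlapped a replicate 1 peak (5.88%). Over the genome 36.6% of replicate 2 blocks did so, and 23.4% of the 24588 other blocks with folds from 2.82 to 13.0, the range of the Gbp blocks. The share of other blocks found in replicate 1 climbed with fold, from 3.56% at folds of 2 to under 4, through 14.0% at 4 to under 6 and 49.5% at 6 to under 8, to 88.2% at 8 to under 16. Cluster blocks found in replicate 1 were 0 of 2, 0 of 8, 0 of 5 and 1 of 2 in those ranges. Replicate 1's list also covers less of the genome than replicate 2's; the part that this played at the Gbp genes was not tested.

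**Figure D4:**
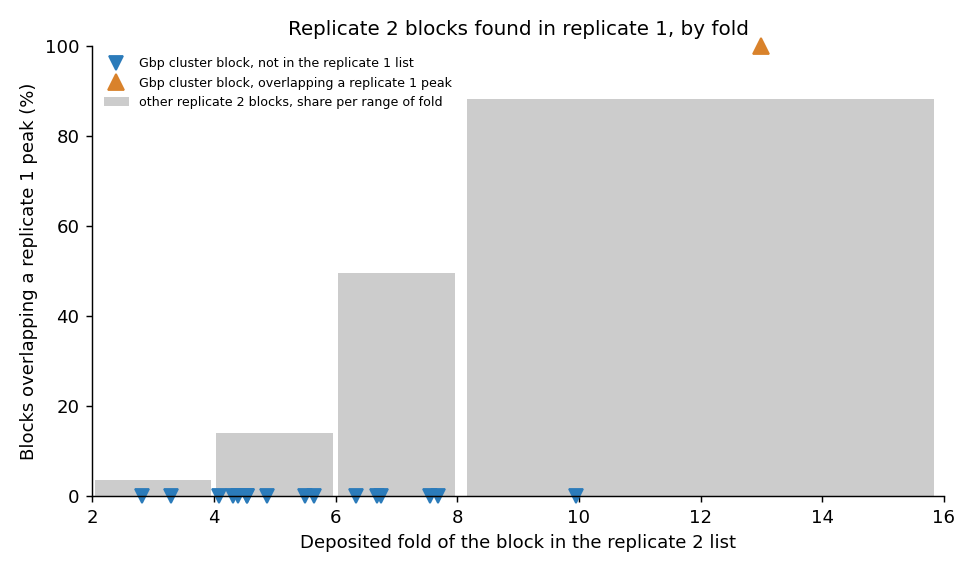
Share of replicate 2 blocks that overlap a replicate 1 peak (%, vertical axis) by deposited fold in replicate 2 (horizontal axis). Grey bars are all other blocks in 4 ranges of fold; triangles are the 17 single Gbp blocks, of which 16 are not in replicate 1's list (at 0) and 1, at a fold of 13.0, overlaps a replicate 1 peak (at 100).

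The replicated list took up a minority of the pooled blocks that lacked a base in replicate 1. In the Gbp clusters 13 of the 14 pooled blocks lacked one, and 0 of these 13 were in the replicated list. Over the genome 3468 of 15053 such pooled blocks were in it (23.0%), as were 99.6% of pooled blocks with a base in replicate 1.

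What the members share outside the peaks was read from the genome. The 500 bp on each side of the 8 own starts had an observed to expected CpG of 0.0521 (Gbp6) to 0.455 (Gbp7) and a GC content of 41.9% to 50.5%, so none reached the 0.6 that defines a CpG-rich start. All coding genes had a median of 0.553, and genes that replicate 2 marked at any basic-set start a median of 0.752. Both medians were taken at the outermost 5′ end of each gene, unlike the own starts used for the members. Among the genes that replicate 2 marked, 28.2% of the 2213 without a CpG-rich start had no base in replicate 1's list, against 17.7% of the 6108 with one.

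The Gbp genes are copies of each other to different degrees, and read length and mapping rules are not known here. The share of positions whose 50-base word occurs once in the genome was 91.1% over the chromosome 3 cluster and 69.4% over the chromosome 5 cluster. In Gbp6 it was 45.2% and in the unmarked Gbp10 45.0%, and 48.4% of the 50-base words of Gbp6 also occur in Gbp10. Peaks that the lists place on Gbp6, and their absence from Gbp10, are therefore uncertain. With 100-base words the unique share was 68.4% in Gbp6 and 68.7% in Gbp10. In the first replicate 2 block of Gbp6 it was 67.8% with 50-base words and 89.0% with 100-base words. The other members shared 3.47% or less of their words with any other Gbp gene that does not overlap them. In the first 3 kb of Gbp9 the unique share was 53.9% with 50-base words and 84.7% with 100-base words. The chromosome 3 members, with no base in replicate 1, had 95.5% to 99.4% of their first 3 kb unique with 50-base words. The part that uniqueness played in any of the peak lists was not tested.

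The Gbp genes outside the 8 had no peak. Gbp2b, the gene next to Gbp2 that encodes the protein long called Gbp1, Gbp10, the pseudogene Gbp2-ps and Gbp11, annotated as a polymorphic pseudogene, had 0 bp in all 4 lists. Of the nearest coding genes, Gtf2b, the general transcription factor gene past the end of the chromosome 3 cluster, had 11858 bp covered in replicate 1, 12728 bp in replicate 2 and 12656 bp in the replicated list. Its neighbour Pkn2 had 29420 bp in replicate 1 and 47063 bp in replicate 2, and Pdlim5, before the cluster, had 21296 bp and 54827 bp. Kyat3, Unc5c and Bmpr1b had no covered base in any list. Beside the chromosome 5 cluster, the volume-regulated channel subunit gene Lrrc8d had 73464 bp in replicate 1 and 107360 bp in replicate 2, Lrrc8c 1502 and 8112 bp, and Zfp951 1657 and 13311 bp. BC005561 (2936 bp) and Abcg3 (561 bp) were covered in replicate 2 and not in replicate 1, and Lrrc8b in neither.

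Genes of the pathways around the Gbp proteins were read in the same lists; the replicated list marked 30.3% of all coding genes and replicate 1's list 27.2%. Of 18 genes of interferon receptors and signalling, 15 were marked there and in replicate 1, among them Irf2 (71365 bp in the replicated list), the receptor kinase gene Jak1 (69774 bp) and Ptpn2 (20949 bp), which encodes a phosphatase that dampens the pathway. The feedback inhibitor gene Socs1 had no base in any list. Socs3, another such inhibitor, had 0 bp in the replicate 1 and replicated lists, 2030 bp in replicate 2 and 801 bp in the pooled list, and so was covered in the lists that covered the 6 Gbp genes. Ptpn6 was not marked at its outermost start in the replicated list and had 9195 bp further in. The IRG GTPases are another large family that interferon induces. Of 14 genes listed with them, 8 were marked in the replicated list, 6 in replicate 1 and 11 in replicate 2, which marked 35.6% of all coding genes. This list also holds Gvin1, of another GTPase family, and Irgq and Irgc1, IRG genes not known to be induced by interferon. Ifi47 (12166 bp), Irgm2 (10485 bp, overlapping Igtp) and Gm4951 (6098 bp) had most bases, while Tgtp1, Iigp1 and F830016B08Rik had 0 bp. Tgtp1 has a near-identical copy in Tgtp2 (2732 bp), so the split between these genes is uncertain. Iigp1, an effector at the same vacuoles as the Gbp proteins, had 0 bp in replicate 1, 7860 bp in replicate 2 and 7245 bp in the pooled list, which are the lists that covered the 6 Gbp genes. Of the 11 genes of this GTPase list that replicate 2 marked, 4 had no base in replicate 1: Iigp1, Gm4951, Irgq and Gvin1. Irgq had 656 bp and Gvin1 261 bp covered in the first 3 kb in replicate 2. The share among all genes that replicate 2 marked at any basic-set start was 20.5%. In the other pathway lists, here and below, it was 3 of 6 (prenylation), 2 of 9 (inflammasome partners), 1 of 9 (ATG8 conjugation) and 1 of 17 (interferon receptors and signalling).

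Genes of ATG8 proteins and of the enzymes that load them onto membranes, which Gbp proteins need to reach vacuoles, were marked in 9 of 11 cases in the replicated list and 8 of 11 in replicate 1. Atg7 had 22227 bp, Atg5 15631 bp and Atg3 13526 bp in the replicated list, and Atg10 and Map1lc3a had none. Of 7 genes of protein prenylation and the processing that follows it, 5 were marked in the replicated list and 3 in replicate 1. Not all of them act on proteins such as Gbp2 and Gbp5, which carry a prenyl lipid. Pggt1b, the catalytic subunit of the enzyme that adds geranylgeranyl groups to such proteins, had 15497 bp in the replicated list. Rabggtb had 5261 bp there, Fnta 2417 bp, and Fntb and Rabggta none. Like Socs3 and Iigp1, Fntb had 0 bp in replicate 1 but 3796 bp in replicate 2 and 1782 bp in the pooled list. Of 12 genes of inflammasomes and their partners, 9 were marked in the replicated list and 7 in replicate 1. Those marked with most bases were Nlrp3 (17944 bp), Tlr4 (17710 bp) and Casp4, the gene of caspase-11 (11765 bp). Il1b and Il1a had no covered base, and Aim2 had 32916 bp but none in its first 3 kb. These lists were drawn up with results of these data known, and no test was made on them.

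By the profile of covered share in 20 bins along the gene in both replicates, the coding genes nearest to Gbp9 were Gm44503 (mean absolute difference 0.0438), Clec4a2, a C-type lectin receptor gene (0.0530), and Cul9, a cullin gene (0.0541), of 2980 candidates of like length with a covered base. A gene with no coverage at all would differ by 0.0760, so the likeness is slight. All 3 had 0 bp in replicate 1, and 7948 bp, 5887 bp and 2014 bp in replicate 2.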

How the data were processed

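H3K79me2 ChIP-seq peaks of 2 biological replicates were taken as deposited in narrowPeak form on mm10. Per the deposited text notes, a list was made from each replicate alone, from pooled alignments, and, as the replicated list, from the alignments of both. Aligner, caller, thresholds and the replicated-list rule were not given in the sources used here. The deposited score of each peak, a display value, was not used. The fold is the authors' ratio of a peak over the control, with an unstated scaling, and served to describe and rank peaks within a list. The deposited −log10 q was printed as it stands; the deposited −log10 p was not used. Depth is unknown, so no interval is given.

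Touching peaks of a list were joined and compared with GENCODE M21 (GRCm38) coding genes of chromosomes 1 to 19, X and Y in Python 3.11.15 with pandas 2.3.3 and numpy 2.4.6. Blocks were shared at an overlap of 1 bp. Own starts of the members were chosen after values were seen; that of Gbp8 is outside the basic set. Sequence uniqueness was counted over both strands of the RefSeq GRCm38.p6 genome. The coverage and word counts were tested on simulated data. Members, gene lists and rules were chosen with earlier results of these data known. Named genes beyond the members are the other Gbp genes, the 3 nearest coding genes on each side of a cluster, Gm43302, the 3 genes nearest in profile to Gbp9, which ties with Gbp8 at 1802 bp in the replicated list and has the higher share covered, and for each pathway list up to 3 marked genes with most bases and up to 3 unmarked ones in list order.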

Additional observations from a re-analysis of the deposited data

How the results depend on the processing

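The count of members marked, 0 of 8 in the replicated list, was also 0 for peaks at or above the median fold, for minimums of 1000 bp and 1 bp and for a window of 5000 bp. It was 7 in the pooled list, 2 over whole genes and 1 with any basic-set start. Leaving out a replicate, that is taking the list of the other alone, gave 0 to 7, the 7 being without replicate 1. In settings added after seeing the data, any basic-set start gave 8 with the replicate 2 list, 1 with the replicate 1 list and 8 with the pooled list, and own starts gave 1 with the replicated, 8 with the replicate 2, 1 with the replicate 1 and 8 with the pooled list.

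Members with any covered base numbered 2 (34.1% of coding genes), and 8 in the pooled list (38.2%); the range on leaving out a replicate was 2 (31.0%) to 8 (39.7%). Covered bases, 1802 bp in the replicated list, ranged from 308 to 32214 bp over all members, from 0 to 10847 bp on chromosome 3 and from 308 to 21367 bp on chromosome 5 when a replicate was left out. The pooled list moved the chromosome 3 value from 0 to 8845 bp. The cause of these differences was not tested. The number of coding genes marked was 6658 in the replicated list and from 4884 to 8321 in the settings run. The 1 shared block remained at 1 when at least 0.5 of the shorter block had to overlap.

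No paired analysis was possible because the 2 replicates form a single group. Peak lists without read counts cannot separate a missing peak from too few reads.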
